A study of Homo sapiens with 6 samples.

Results

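Transcripts of 32 genes of cholesterol and fatty acid synthesis were examined in PC-3 tumors, chosen by name and found as 32 of the 24000 entries of the deposited table. The list holds the SREBP transcription factors with the proteins that hold or release them, the enzymes of the mevalonate, sterol and fatty acid steps, 1 sterol carrier and 2 cholesterol exporters. PC-3 is a hormone-refractory human prostate cancer cell line. The tumors grew in nude mice, which lack T cells and keep innate immune cells, and the labels give 3 RNA samples as individual tumors of vehicle-treated mice and 3 as those of mice given WCE, a standardized extract of the herb Wedelia chinensis. The labels give a treatment of 10 weeks for every tumor and no dose or age. Host cells in the tumors are of mouse origin. All tumors derive from 1 cell line, so the replicates are mice and not cell lines.

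Cholesterol and fatty acids are both built from cytosolic acetyl-CoA. SREBP2 mainly drives the sterol enzymes and SREBP1 the fatty acid enzymes. When membranes hold enough sterol, INSIG proteins keep SCAP and its SREBP cargo in the endoplasmic reticulum, and when sterol is scarce SCAP carries the SREBPs to the Golgi, where they are cleaved and sent to the nucleus. Excess cholesterol is instead exported through ABCA1 and ABCG1, which are induced by oxysterols through LXR. Prostate cancers are known for active lipid synthesis, and FASN is often abundant in them.

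SREBPs bind promoters at sterol regulatory elements, often beside boxes for NF-Y and Sp1. RefSeq promoter windows (GRCh38.p14) were found for 27 of the 32 genes and not for ABCG1, ACAT2, FASN, FDFT1 and SQLE. The 250 bases before the first listed start of each gene were searched on both strands for TCACNCC, the start of a sterol regulatory element, for CCAAT, the NF-Y box, and for GGGCGG, the GC box. The first listed start need not be the one used in these tumors, and the windows were not matched to the measured loci. TCACNCC was present in 6 of the 27 genes, or 22.2%, against 12.8% of all 27305 genes with a window. CCAAT was present in 16 genes, or 59.3% against 33% of all, and GGGCGG in 25 genes, or 92.6% against 42.3% of all. The 27305 genes were not limited to protein-coding or expressed genes, as the 27 are, so the shares do not compare like sets. These are matches of letters and not shown to be bound in these tumors.

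The 4 windows shown belong to the gene whose groups did not overlap and was higher under WCE (SREBF2), to the genes lower at an unadjusted p under 0.05 (IDI1 and CYP51A1), and to a sterol enzyme that stood higher in 2 of the 3 WCE-treated tumors (TM7SF2). They lie at chr22:41832855-41833104 on the plus strand, chr10:1056705-1056954 on the minus strand, chr7:92134478-92134727 on the minus strand and chr11:65111622-65111871 on the plus strand of GRCh38.p14. Each is given from 5′ to 3′ in the direction of the gene, and capitals mark any of the 3 motifs on either strand, where adjacent motifs can run together.
SREBF2: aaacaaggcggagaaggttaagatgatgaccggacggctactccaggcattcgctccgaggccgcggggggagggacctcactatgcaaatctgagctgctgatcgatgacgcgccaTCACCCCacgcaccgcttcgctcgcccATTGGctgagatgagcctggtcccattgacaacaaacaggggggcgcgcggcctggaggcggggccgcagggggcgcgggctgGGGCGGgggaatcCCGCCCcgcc
IDI1: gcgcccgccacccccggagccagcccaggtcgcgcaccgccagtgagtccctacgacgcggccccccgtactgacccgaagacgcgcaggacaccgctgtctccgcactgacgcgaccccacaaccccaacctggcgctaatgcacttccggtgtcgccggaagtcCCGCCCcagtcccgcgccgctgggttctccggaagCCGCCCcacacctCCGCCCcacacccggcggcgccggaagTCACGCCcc
CYP51A1: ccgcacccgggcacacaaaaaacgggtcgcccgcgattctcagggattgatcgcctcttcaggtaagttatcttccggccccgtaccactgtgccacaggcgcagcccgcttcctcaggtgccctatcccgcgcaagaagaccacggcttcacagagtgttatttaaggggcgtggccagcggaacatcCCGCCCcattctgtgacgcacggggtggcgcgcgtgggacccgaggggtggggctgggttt
TM7SF2: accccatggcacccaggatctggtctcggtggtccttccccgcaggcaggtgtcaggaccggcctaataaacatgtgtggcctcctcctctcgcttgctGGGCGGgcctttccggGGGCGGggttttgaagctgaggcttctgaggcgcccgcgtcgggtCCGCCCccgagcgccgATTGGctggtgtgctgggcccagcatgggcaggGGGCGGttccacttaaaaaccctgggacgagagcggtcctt

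The SREBF2 window held 1 TCACNCC, 1 CCAAT and 2 GGGCGG matches. The IDI1 window held 1 TCACNCC and 3 GGGCGG matches and no CCAAT. The CYP51A1 window held 1 GGGCGG match alone of the 3 motifs, and the TM7SF2 window held 1 CCAAT and 4 GGGCGG matches.

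The deposited values are FPKM, fragments scaled to transcript length and to the mapped fragments of the library, so levels can be compared between genes. Read counts are not in the table. The depth relative to vehicle replicate 3, read from the steps between low values, was between 64.8% and 85.2% in the other tumors except WCE replicate 1, where it was 25.0%. Vehicle replicate 3 and WCE replicate 1 were nearly identical. Over the 32 genes the median absolute difference in log2(FPKM + 1) was 0.041 in this pair, whereas the other 14 pairs differed by 0.11 to 0.25, and every one of the 15805 entries detected in WCE replicate 1 was also detected in vehicle replicate 3. In each remaining tumor, between 329 and 546 of those entries were at 0. Whether the libraries of this pair come from 2 tumors or from 1, and whether both labels are right, was not tested. The means, SDs and p-values of 3 against 3 tumors take the labels as given and count them as separate, and results are also given without both. The tumors carried the PC-3 markers KRT8, KRT18, KRT19, VIM, CD44 and EZR at a sum of 1328 to 1809 FPKM. KLK2 and KLK3, markers of luminal prostate cells, were listed at 0 in every tumor, and TMPRSS2 was at 9.94 to 26.1 FPKM.

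The genes ranged over more than 2 orders of magnitude in level, which the plot of FPKM by gene shows. FDPS, which makes farnesyl diphosphate, had the highest group means, at 134 ± 8.34 FPKM with vehicle and 143 ± 7.34 FPKM with WCE (SD, n = 3 each). FADS2, a desaturase of polyunsaturated fatty acids, followed at 122 ± 26.0 and 118 ± 10.5 FPKM (SD, n = 3 each). Their ranges over the tumors, 126 to 150 and 95.4 to 147 FPKM, overlapped. SQLE, which forms the epoxide of squalene, ranged from 73.7 to 94.6 FPKM. The exporters were the lowest genes, with ABCG1 at 0.441 to 1.47 FPKM and ABCA1 at 1.18 to 1.85 FPKM. The ratio of the highest to the lowest tumor had a median of 1.42 over the genes, against 1.44 for all tested entries above 0 in every tumor. It was lowest for ACLY, at 1.15, and highest for ABCG1, at 3.33, and SCD, at 2.26.

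**Figure D1:**
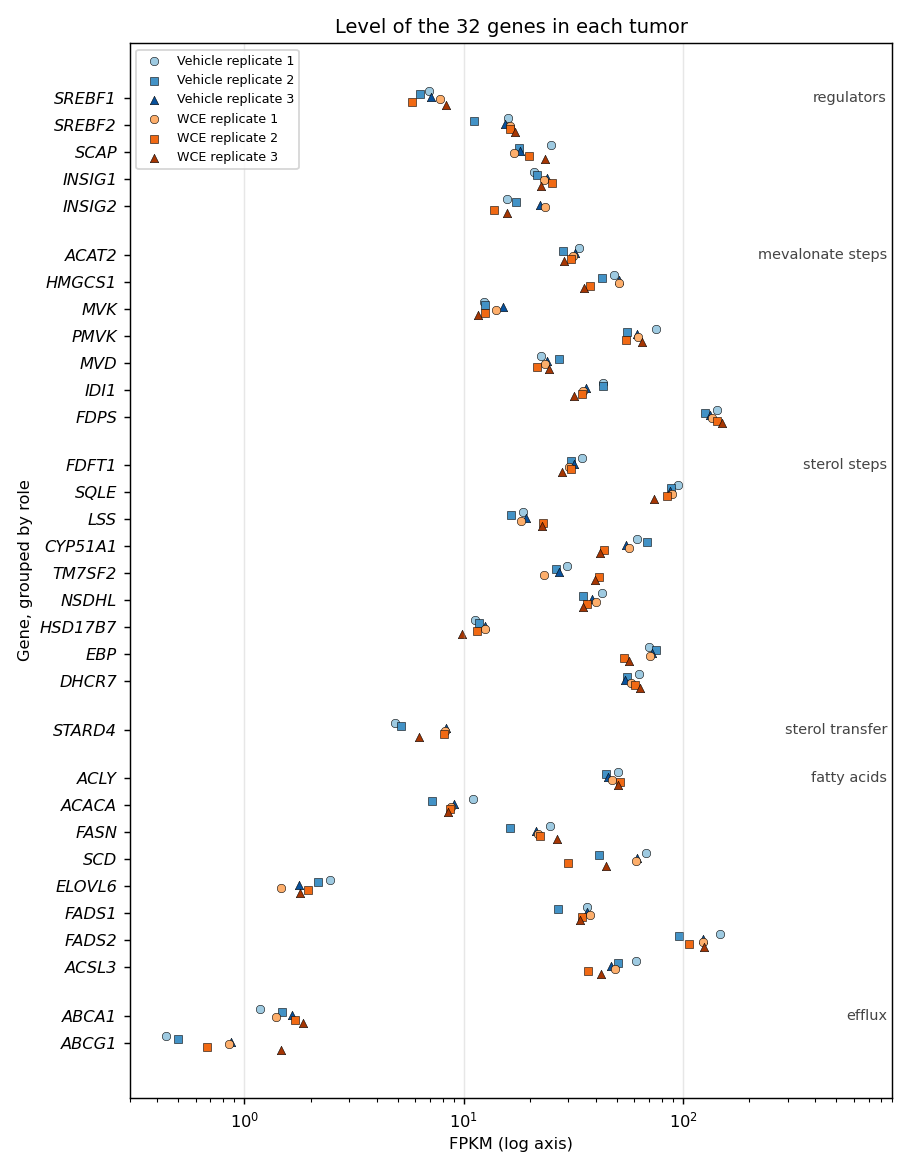
FPKM on a log axis for each of the 32 genes, grouped by role, with 1 point for each of the 3 vehicle-treated tumors (blue) and 3 WCE-treated tumors (orange). FDPS and FADS2 lie highest and ABCG1 lowest, and for 29 of the genes the colors overlap.

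In the comparison of WCE with vehicle, 2 of the 32 genes were lower at an unadjusted p under 0.05 by limma, CYP51A1 and IDI1, and 0 were higher. None had an adjusted p under 0.05 by limma, and the lowest adjusted p was 0.623. Of all 13287 tested entries, 7.10% had an unadjusted p under 0.05. CYP51A1, the demethylase that acts on lanosterol, stood at 77.0% of its vehicle mean, and IDI1, which interconverts the isoprenoid building blocks, at 83.1%. Groups did not overlap for 3 genes. IDI1 and FDFT1 were lower in every WCE-treated tumor than in any vehicle-treated tumor, and SREBF2 was higher. Between tumors of the vehicle group alone, 28 of the 32 genes spanned a wider range of log2(FPKM + 1) than the difference between group means, as did 84.1% of all tested entries.

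The 13287 tested entries are those with a mean of 0.5 FPKM or more, a limit that all 32 genes passed, and values were tested as log2(FPKM + 1). Of these entries, 3.33% were lower and 3.78% higher at an unadjusted p under 0.05, and 0.00753% had an adjusted p under 0.05. The 2 genes are 6.25% of 32. Groups did not overlap in 12.8% of all entries (6.40% lower and 6.37% higher) and in 9.38% of the 32 genes. The log2 fold changes of the 32 genes ran from −0.38 for CYP51A1 to 0.31 for ABCG1, with 19 lower and 13 higher and a median of −0.045, against −0.0063 for all tested entries. The median was 0.043 without vehicle replicate 1. In both counts of calls the list stood near all entries. In these bulk samples, which can also hold reads of mouse host cells, fewer cells of a type and less RNA per cell cannot be told apart.

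**Figure D2:**
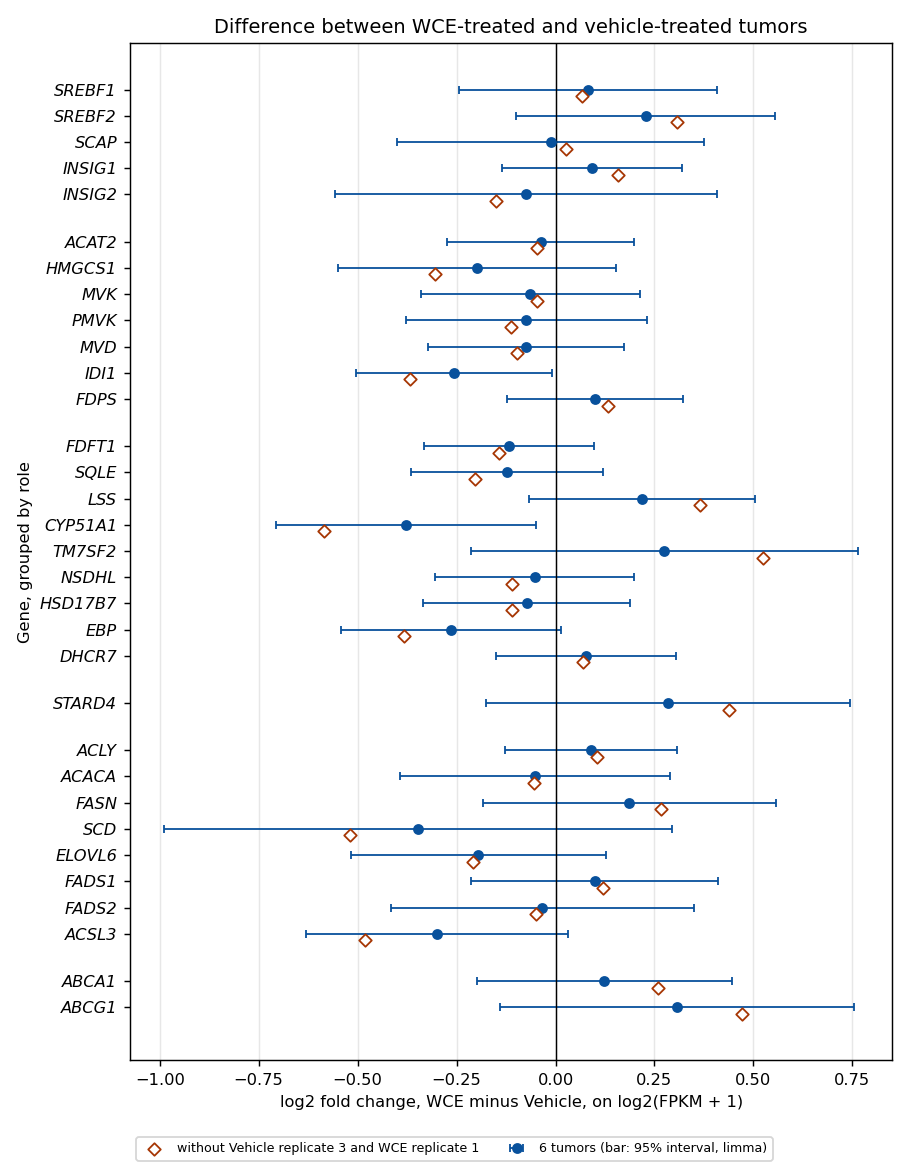
Log2 fold change of each gene on the log2(FPKM + 1) scale, WCE minus vehicle. Filled circles are the 3 against 3 comparison with 95% intervals from limma, and open diamonds are the values without vehicle replicate 3 and WCE replicate 1. The intervals of CYP51A1 and IDI1 lie below 0, and those of the other 30 genes include 0.

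Among the regulators, SREBF2, the gene of SREBP2 (chromosome 22, 42229106 to 42302375 in the table), had 15.9, 11.1 and 15.4 FPKM in vehicle replicates 1, 2 and 3 and 16.2, 16.2 and 17.2 FPKM in WCE replicates 1, 2 and 3. All WCE-treated tumors lay above the vehicle-treated ones, but the highest vehicle-treated tumor was 15.9 and the lowest WCE-treated 16.2, and vehicle replicate 2 stood apart at the low end. The log2 fold change was 0.23 (SE 0.14, unadjusted p = 0.145, adjusted p = 0.635, both by limma), and the exact permutation test allows no two-sided p below 0.1 for 3 against 3. Without vehicle replicate 2 the log2 fold change was 0.076.

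SREBF1, the gene of SREBP1, had 6.91, 6.28 and 7.12 FPKM with vehicle and 7.80, 5.79 and 8.30 FPKM with WCE. WCE replicates 2 and 3 were its lowest and highest tumors, so the groups overlapped. SCAP, the escort of the SREBPs, had 25.0, 17.9 and 18.1 against 16.9, 19.8 and 23.5 FPKM, with 1 high tumor in each group. Its log2 fold change of −0.013 had a 95% interval from −0.40 to 0.38.

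INSIG1, which retains SCAP and is itself an SREBP target, had 21.0, 21.5 and 23.9 FPKM with vehicle and 23.2, 25.2 and 22.5 FPKM with WCE. Its log2 fold change was 0.092, with a 95% interval from −0.14 to 0.32. INSIG2 had 15.7, 17.2 and 22.1 against 23.4, 13.7 and 15.7 FPKM. Its high tumors were the nearly identical pair, vehicle replicate 3 and WCE replicate 1, and the remaining 4 lay between 13.7 and 17.2 FPKM. None of the 5 regulators had an unadjusted p under 0.05. The loci of SREBF1 and SREBF2 are shared with other entries, as are those of ACAT2, IDI1, FDPS, STARD4, ACACA and FADS1, and the authors' assignment of reads there could not be checked.

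Of the 7 genes from ACAT2 to FDPS, which carry acetyl-CoA to farnesyl diphosphate, 6 were lower and FDPS was higher in WCE-treated tumors, and only IDI1 had an unadjusted p under 0.05 by limma. The median log2 fold change was −0.074. IDI1 (chromosome 10, 1064847 to 1095061) had 43.1, 42.9 and 35.9 FPKM with vehicle and 35.1, 34.4 and 31.8 FPKM with WCE. The step lay between vehicle replicates 1 and 2 and the other 4 tumors, and the groups were separated by the difference between vehicle replicate 3 and WCE replicate 1. The log2 fold change was −0.26 (SE 0.11, unadjusted p = 0.0439, adjusted p = 0.623, both by limma). The unadjusted p was above 0.05 when any tumor but vehicle replicate 3 was left out, from 0.0552 without WCE replicate 1 to 0.142 without WCE replicate 3, with log2 fold changes of −0.28 to −0.21. Without vehicle replicate 3 the log2 fold change was −0.34 (unadjusted p = 0.0118 by limma).

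HMGCS1, the synthase that commits acetoacetyl-CoA to this route, had 48.4, 42.7 and 50.7 FPKM with vehicle and 51.1, 37.8 and 35.5 FPKM with WCE. WCE replicates 2 and 3 were below the other 4 tumors, and WCE replicate 1 was the highest of all, so the groups overlapped (log2 fold change −0.20, 95% interval −0.55 to 0.15). ACAT2, MVK, PMVK and MVD, which supply or phosphorylate and decarboxylate mevalonate intermediates, had log2 fold changes between −0.074 and −0.038 and overlapping groups. FDPS had a log2 fold change of 0.10 (95% interval −0.12 to 0.32), and processed pseudogenes of FDPS could share its reads. The end of ACAT2 overlaps TCP1 on the opposite strand, and whether strand was used in counting is not given in the sources used here.

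The 9 sterol enzymes from FDFT1 to DHCR7, which turn farnesyl diphosphate into cholesterol, went both ways, with 6 lower and 3 higher and a median log2 fold change of −0.073. CYP51A1 (chromosome 7, 91741463 to 91764059) had 61.4, 68.1 and 55.0 FPKM with vehicle and 56.4, 43.6 and 42.0 FPKM with WCE. WCE replicates 2 and 3 were the low tumors, whereas WCE replicate 1 lay within the vehicle range. The group means were 61.5 ± 6.59 and 47.3 ± 7.93 FPKM (SD, n = 3 each). The difference on the log2 scale was −0.38 (SE 0.14, unadjusted p = 0.0290, adjusted p = 0.623, both by limma). The unadjusted p was from 0.0598 to 0.108 without vehicle replicate 1 or 2 or WCE replicate 2 or 3, with log2 fold changes of −0.38 to −0.30. It was 0.0233 without vehicle replicate 3 (log2 fold change −0.45) and 0.0045 without WCE replicate 1 (log2 fold change −0.51).

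EBP, the isomerase further along the same route, had 69.6, 75.0 and 71.9 FPKM against 70.4, 53.9 and 56.6 FPKM. As in CYP51A1, WCE replicates 2 and 3 were below the other 4 tumors (log2 fold change −0.26, 95% interval −0.54 to 0.013, unadjusted p = 0.0592 by limma). TM7SF2, a sterol reductase that follows CYP51A1, showed the opposite order, with 29.5, 26.4 and 27.2 FPKM with vehicle and 23.2, 41.4 and 39.8 FPKM with WCE. WCE replicate 1 was its lowest tumor and WCE replicates 2 and 3 its highest (log2 fold change 0.28, 95% interval −0.21 to 0.76). LSS, the cyclase that forms lanosterol, had 18.7, 16.4 and 19.2 against 18.1, 23.1 and 22.6 FPKM, again highest in WCE replicates 2 and 3.

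FDFT1, squalene synthase, had 34.5, 31.0 and 31.7 FPKM with vehicle and 30.1, 30.9 and 28.2 FPKM with WCE. The groups did not overlap, but vehicle replicate 2 and WCE replicate 2 were almost level and the difference was small, at −0.12 on the log2 scale (unadjusted p = 0.237 by limma). SQLE was lowest in WCE replicate 3, at 73.7 FPKM, with the other 5 tumors between 84.7 and 94.6 FPKM. NSDHL and HSD17B7, which act together in removing methyl groups, had log2 fold changes of −0.053 and −0.073, and DHCR7, the last reductase, 0.076. HSD17B7 has near-identical pseudogene copies, so its value is uncertain. STARD4, which moves sterol between membranes, had 4.84, 5.16 and 8.32 FPKM against 8.17, 8.14 and 6.21 FPKM. Vehicle replicates 1 and 2 were low, and vehicle replicate 3 was the highest tumor.

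For each of the 8 fatty acid genes the range among vehicle-treated tumors was wider than the difference between group means. The same held for 84.1% of all tested entries. Vehicle replicate 1 was the highest tumor for 5 of them, ACACA, SCD, ELOVL6, FADS2 and ACSL3, and for 28.4% of all tested entries. Vehicle replicate 2 was the lowest for 5, ACLY, ACACA, FASN, FADS1 and FADS2, and for 17.6% of all tested entries. The median deviation of the 8 genes from their means over the 6 tumors, in log2(FPKM + 1), was 0.27 in vehicle replicate 1 and −0.25 in vehicle replicate 2. In the other 4 tumors it was between −0.028 and 0.026. The median log2 fold change of the 8 genes between groups was −0.042, and its sign turned with 1 vehicle-treated tumor, to 0.098 without vehicle replicate 1 and −0.19 without vehicle replicate 2.

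**Figure D3:**
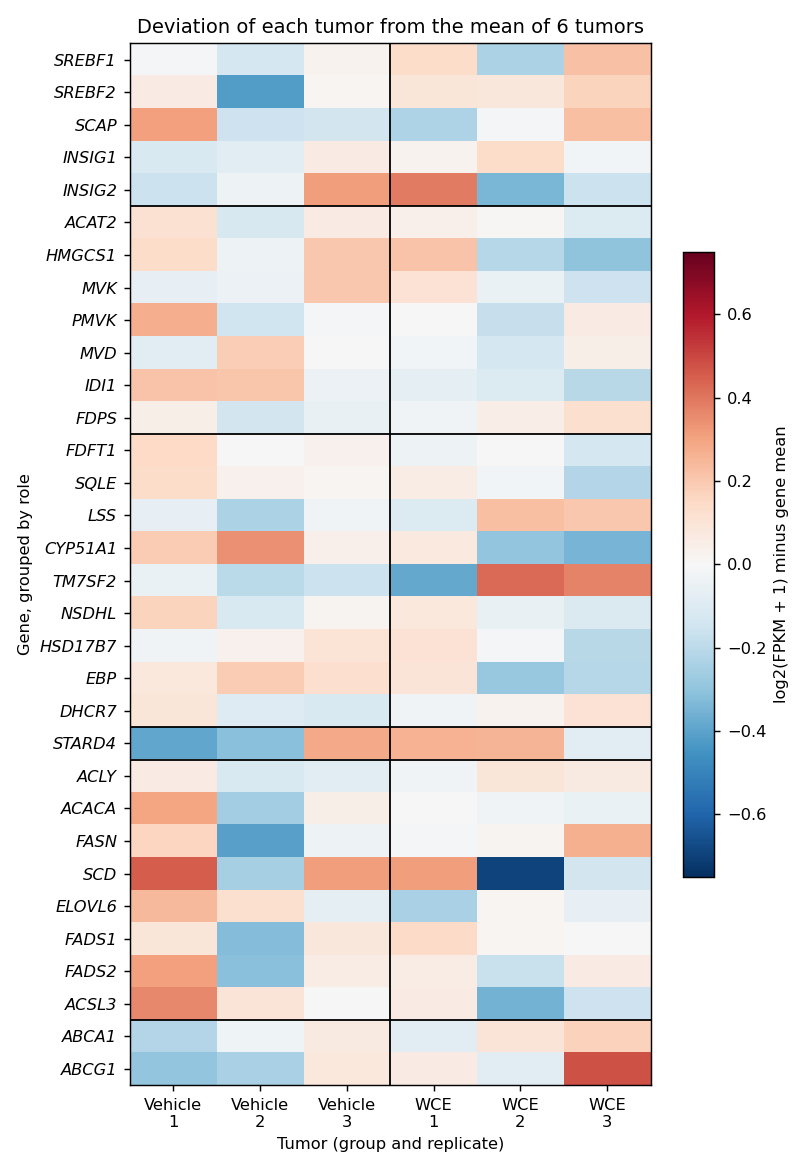
Deviation of log2(FPKM + 1) from the gene's mean over the 6 tumors, with genes as rows grouped by role and tumors as columns, red above and blue below the mean. Vehicle replicate 3 and WCE replicate 1 look alike, the fatty acid genes are red in vehicle replicate 1 and mostly blue in vehicle replicate 2, and CYP51A1 and EBP are blue where TM7SF2 and LSS are red in WCE replicates 2 and 3.

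FASN, the multidomain synthase that assembles palmitate, had 24.6, 16.3 and 21.3 FPKM with vehicle and 21.7, 22.2 and 26.5 FPKM with WCE. Vehicle replicate 2 was low and the remaining tumors overlapped (log2 fold change 0.19, 95% interval −0.18 to 0.56). The log2 fold change was 0.031 without vehicle replicate 2, 0.10 without WCE replicate 3 and 0.31 without vehicle replicate 1. SCD, which introduces the first double bond into saturated fatty acids, had 67.7, 41.2 and 61.4 against 61.3, 30.0 and 44.6 FPKM. It was the most variable of the 8, with a ratio of highest to lowest tumor of 2.26, and its log2 fold change of −0.35 had an interval from −0.99 to 0.29. The value moved with single tumors, and leaving out WCE replicate 2 gave −0.086, vehicle replicate 1 gave −0.21, vehicle replicate 2 gave −0.56 and WCE replicate 1 gave −0.59. ACSL3, which activates fatty acids with coenzyme A, had 60.7, 50.4 and 47.0 against 49.1, 36.7 and 42.2 FPKM, with WCE replicates 2 and 3 lowest (log2 fold change −0.30, unadjusted p = 0.0700 by limma).

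ACLY, which releases cytosolic acetyl-CoA from citrate, was even, at 46.8 ± 3.18 and 49.9 ± 2.11 FPKM (SD, n = 3 each). ACACA, which makes malonyl-CoA, had 9.07 ± 1.92 and 8.60 ± 0.164 FPKM, and ELOVL6, which elongates palmitate, 2.13 ± 0.342 and 1.73 ± 0.243 FPKM (SD, n = 3 each). FADS1, the partner desaturase of FADS2, had 33.3 ± 5.42 and 35.4 ± 2.05 FPKM (SD, n = 3 each). None of the 8 had an unadjusted p under 0.05. The summed level of 10 adipocyte markers was 19.0 to 50.2 FPKM with vehicle and 27.0 to 59.6 FPKM with WCE, mostly FABP4 and lowest in vehicle replicate 1, with 4 of the 10 tested, 3 higher and 1 lower, and ADIPOQ, LEP and PLIN1 under 0.5 FPKM in every tumor. Their part in the fatty acid values was not tested.

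The exporters ABCA1 and ABCG1 had higher means in WCE-treated tumors, by 0.12 and 0.31 on the log2 scale, without an unadjusted p under 0.05. ABCA1 had 1.18, 1.48 and 1.65 FPKM against 1.39, 1.71 and 1.85 FPKM, and ABCG1 had 0.441, 0.498 and 0.872 against 0.850, 0.677 and 1.47 FPKM. WCE replicate 3 was the highest tumor and vehicle replicate 1 the lowest for both, and the groups overlapped. WCE replicate 1 was the shallowest library. At these levels the pseudocount sets the size of the difference, and with 0.1 in place of 1 it was 0.63 for ABCG1 and 0.19 for ABCA1. Without WCE replicate 3 it was 0.14 for ABCG1 and 0.068 for ABCA1, and without vehicle replicate 1 it was 0.044 for ABCA1. ABCA1 and ABCG1 are also used by endothelial cells and macrophages. Of 10 endothelial markers 5 were tested, with log2 fold changes from 0.033 for ROBO4 to 1.14 for KDR. ROBO4 was level, with a mean of 2.08 FPKM in both groups. KDR and TIE1 had an unadjusted p under 0.05 by limma. KDR had 0.216, 0.247 and 0.529 FPKM with vehicle and 0.559, 1.59 and 5.12 FPKM with WCE. The endothelial sums were 4.13 to 9.88 FPKM with vehicle and 8.91 to 13.9 FPKM with WCE. VWF, CDH5 and CLDN5 were under 0.5 FPKM and EMCN at 0 in every tumor. Of 10 myeloid markers CD68 alone was tested, and the sums were 25.8 to 41.7 and 40.9 to 44.8 FPKM, with TYROBP at 0 in every tumor. These sums were almost wholly CD68, and no other myeloid marker was above 0.666 FPKM, the highest value of PTPRC. The entries are human genes and host cells are of mouse origin, so the endothelial and myeloid sums are not a measure of host vessels or macrophages. By CD31 staining and flow cytometry, the paper reports less vessel area and fewer tumor-associated macrophages in PC-3 tumors with WCE. The 10 fibroblast markers summed to 74.1 to 101 and 85.3 to 102 FPKM, with 6 tested, 2 higher and 4 lower. LUM was lower at an unadjusted p under 0.05 by limma (log2 fold change −0.85), with overlapping groups. PDGFRA was higher (log2 fold change 0.93, unadjusted p = 0.203 by limma), also with overlapping groups. The part of these cell type markers in the exporter values was not tested.

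Without vehicle replicate 3 and WCE replicate 1, the comparison of 2 tumors with 2 gave more genes at an unadjusted p under 0.05 by limma, 5 lower and 3 higher, and still none with an adjusted p under 0.05. For 2 against 2 the exact permutation test allows no two-sided p below 0.333. The lower genes were CYP51A1 (log2 fold change −0.59), ACSL3 (−0.48), EBP (−0.38), IDI1 (−0.37) and HMGCS1 (−0.30). The higher genes were TM7SF2 (0.52), STARD4 (0.44) and LSS (0.36). The 8 genes are 25.0% of the 32, where 18.4% of all entries passed (9.59% lower and 8.84% higher), and the lowest adjusted p was 0.174, for CYP51A1, with 0.0376% of all entries under 0.05. Groups did not overlap for 8 genes on the lower and 9 on the higher side, against 27.8% and 25.7% of all entries. SREBF2 had a log2 fold change of 0.31 and INSIG1 of 0.16 in this comparison, both with an unadjusted p above 0.05, and the median of the 32 genes was −0.048.

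Counting tumors by position, WCE replicates 2 and 3 both lay below the other 4 tumors for 6 genes (HMGCS1, IDI1, SQLE, CYP51A1, EBP and ACSL3) and above them for 5 (FDPS, LSS, TM7SF2, ACLY and ABCA1). These are 18.8% and 15.6% of the 32, and the same order held in 16.3% and 17.3% of all tested entries. Both shares were near those of all entries, so neither order is particular to the list. Among the sterol enzymes, SQLE, CYP51A1 and EBP were on the lower side and LSS and TM7SF2 on the higher side.

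Of 36 further genes of cholesterol and fatty acid metabolism, 34 passed the filter, 22 were lower and 12 higher, with a median log2 fold change of −0.072. At an unadjusted p under 0.05 by limma, 1 was lower and 1 higher, 5.88% of the 34 against 7.10% of all entries, and none passed the adjustment. ELOVL5, an elongase of polyunsaturated fatty acids, had 90.8, 84.6 and 88.0 FPKM with vehicle and 85.7, 55.9 and 58.8 FPKM with WCE, so that WCE replicates 2 and 3 were again the low tumors (log2 fold change −0.41, standard error 0.16). ACSS2, which makes acetyl-CoA from acetate and is an SREBP target, had 26.4, 25.3 and 29.1 against 29.7, 32.3 and 38.4 FPKM, with no overlap (log2 fold change 0.30, standard error 0.12). Vehicle replicate 3 and WCE replicate 1 stood at the border between the groups.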

How the data were processed

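RNA-seq of 3 vehicle-treated and 3 WCE-treated PC-3 tumors was analysed from 1 table. The authors deposited FPKM values per gene entry, made before deposition with TopHat2 2.0.13 and Cufflinks per the submitters' processing notes, which name the builds hg19 and mm10 without their roles. Annotation and scaling between tumors are not given in the sources used here. Loci are those of the table with 1 added to the start, since its starts appear to count from 0. Their positions are not in the coordinates of GRCh38.p14, in which the promoter windows are given, and cannot be compared with them directly.

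Entries with a mean of at least 0.5 FPKM were compared with limma 3.58.1 (R 4.3.3, mean-variance trend, two-sided) on log2(FPKM + 1), with Benjamini-Hochberg adjustment over all 13287 entries and a threshold of 0.05. The genes, lists, role groups and tests were chosen with earlier results of these data known. Tumor values are printed for regulators, for genes with an unadjusted p under 0.05 or groups that do not overlap, and for at least 1 gene of each role. HMGCS1, EBP, TM7SF2, LSS and ACSL3 were chosen after their values were seen, for their order across tumors. Symbols were matched exactly, except SC5D (listed as SC5DL) and ADGRE1 (EMR1). Marker lists held adipocyte, fibroblast, endothelial, myeloid, PC-3 and luminal prostate genes. Depth was read from the commonest ratio of low values to vehicle replicate 3 in Python 3.11.15, and intervals for counting error cannot be had, since absolute depth is unknown.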

Additional observations from a re-analysis of the deposited data

How the results depend on the processing

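No setting gave any of the 32 genes an adjusted p under 0.05 by limma, where 2 passed without adjustment in the comparison as designed. That count was 1 with quantile normalization and with no mean-variance trend, 0 with the unmoderated test, 10 with limma array weights, 4 with a replicate block, 8 without vehicle replicate 3 and WCE replicate 1, and from 0 to 6 when 1 tumor was left out (0 without vehicle replicate 1 or 2 or WCE replicate 2 or 3, 4 without vehicle replicate 3 and 6 without WCE replicate 1). The count over the 36 further lipid genes, 2 as designed, was 1 with quantile normalization, 0 with the unmoderated test, 12 with array weights, 7 without the nearly identical tumors, and from 0 to 4 when 1 tumor was left out. The count over all entries was 944 as designed, 955 with quantile normalization, 894 with no trend, 593 with the unmoderated test, 3201 with array weights, 1049 with the replicate block, 2449 without the nearly identical tumors, and 219 to 2033 with 1 tumor left out. With 1 tumor left out, the count over all entries is given as a range and not tumor by tumor. A rise or fall of the count over the 32 genes can therefore not be read as particular to them. The cause was not tested. The array weight was lowest in vehicle replicate 1 (0.408) and highest in WCE replicate 3 (4.00).

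The median log2 fold change of the 32 genes changed sign with array weights, to 0.047, and without vehicle replicate 1, to 0.043, and ranged from −0.097 to 0.043 with 1 tumor left out. In the 12 of 17 settings that can change a fold change, 21 genes kept their direction, 10 lower and 11 higher, CYP51A1 and IDI1 among them, and 11 did not. Of the medians by role, that of the fatty acid genes was 0.082 with array weights, that of the regulators −0.0062 without WCE replicate 3, and that of the exporters 0.41 with a pseudocount of 0.1. Quantile normalization turned SCAP (0.0077) and FADS2 (0.027), array weights SCAP (0.21), PMVK (0.051), ACACA (0.043) and FADS2 (0.12), and the comparison of 2 tumors with 2 SCAP (0.028). With 1 tumor left out, the range was −0.13 to 0.14 for SCAP, −0.11 to 0.010 for ACAT2, −0.17 to 0.042 for PMVK, −0.12 to 0.019 for NSDHL, −0.19 to 0.084 for ACACA, −0.20 to 0.11 for FADS2, −0.040 to 0.17 for FADS1, −0.29 to 0.077 for INSIG2, −0.13 to 0.022 for MVK, −0.0062 to 0.22 for SREBF1 and −0.14 to 0.014 for HSD17B7. IDI1 had an unadjusted p above 0.05 with quantile normalization (0.0504), no trend (0.0554) and the unmoderated test (0.0533), and CYP51A1 with the unmoderated test (0.0754). ABCA1, ABCG1 and ELOVL6 have no value with a filter at 5 FPKM.

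Tumors with the same replicate number came from different mice and did not deviate together, with correlations of −0.24, 0.16 and −0.093 for numbers 1, 2 and 3, and 2 of the 6 tumors correlated best with their own number. With the replicate block, SCD and ACSL3 were added to the genes at an unadjusted p under 0.05.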
